A study of Mus musculus with 6 samples.

Results

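The genes described here are 35 nuclear receptor and corepressor genes: the ligand-dependent and orphan receptors through which the coactivator p/CIP could act, other than the stem cell receptors, together with the corepressors Ncor1 and Nrip1. A gene was taken as found where a probe set of the array carried its symbol and no other. By that rule 32 of the 35 were found, among 19938 genes measured, and each had 1 probe set. Ncor1, Nr1h2 and Nr2e3 had no probe set under their symbol alone and were not analysed here, so Nrip1 was the only corepressor of the set with a value.

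RNA came from mouse embryonic stem (ES) cells of the E14 line, grown on adherent plates and transfected with small interfering RNAs (siRNAs). There were 3 groups of 2 arrays: cells given siRNA 1 against p/CIP, cells given siRNA 2 against p/CIP, and control cells given a pool of non-specific siRNAs. All 3 groups carried the genome of the same line, and p/CIP, the product of Ncoa3, was reduced by transient transfection and not deleted. The labels give neither the time after transfection nor the siRNA sequences, and they are silent on whether the 2 replicates of a group were grown separately. The p-values therefore rest on the spread between arrays, which could be technical only.

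Nuclear receptors are transcription factors, most of which bind DNA next to a ligand pocket that senses a steroid, thyroid hormone, vitamin, fatty acid, sterol or bile acid. Many pair with a retinoid X receptor (RXR) on repeated copies of a short core sequence. A receptor with its activating ligand recruits p160 coactivators, the family of p/CIP, while thyroid hormone and retinoic acid receptors without ligand hold corepressors such as NCOR1.

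The core sequence that receptor dimers with RXR read, and estrogen receptors too, is AGGTCA, and it was looked for on both strands of the RefSeq promoters (GRCm38.p6, 250 bases before to 50 after each gene's start), of which 43 matched 31 of the 35 genes by symbol. Of these 43 promoters, 7 (16.3%), of 6 genes, held AGGTCA or its complement TGACCT, against 16.3% of all 32851 promoters. The 6 genes were Nr1d2, Nr1h4, Pparg, Rxra, Rxrg and Thrb. AGAACA or TGTTCT, the core that glucocorticoid, mineralocorticoid and progesterone receptors read, stood in 3 of the 43 (6.98%), of Ncor1, Nr1i2 and Thrb, against 19.0% of all promoters. The promoters with AGGTCA of the RXR and thyroid hormone receptor genes with the smallest p-values are shown, 5′ to 3′ on the plus strand, with AGGTCA or TGACCT in capitals; the region of Rxra is chr2:27709042-27709341 and that of Thrb is chr14:17660710-17661009. Another promoter of each gene held neither. A match is a run of letters, not a measured binding site.
Rxra: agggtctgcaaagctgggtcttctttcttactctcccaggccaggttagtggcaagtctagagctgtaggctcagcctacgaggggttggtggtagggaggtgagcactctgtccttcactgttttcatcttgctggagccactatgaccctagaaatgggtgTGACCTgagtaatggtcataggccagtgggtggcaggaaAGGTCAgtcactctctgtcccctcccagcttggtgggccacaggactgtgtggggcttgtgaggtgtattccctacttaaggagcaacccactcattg
Thrb: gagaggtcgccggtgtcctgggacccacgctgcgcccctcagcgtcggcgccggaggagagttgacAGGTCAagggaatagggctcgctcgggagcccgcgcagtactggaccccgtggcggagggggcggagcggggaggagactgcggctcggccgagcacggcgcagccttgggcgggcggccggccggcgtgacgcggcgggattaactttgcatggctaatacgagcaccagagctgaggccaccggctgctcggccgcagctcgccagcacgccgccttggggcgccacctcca
In Rxra the matches start at positions 164 (minus strand) and 203 (plus strand), with 33 bases between them, and in Thrb the match starts at position 67, counted from the 5′ end of the printed run.

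All values below are on the deposited log2 scale, on which a difference of 1 is a 2-fold difference. Ncoa3, the target, read 10.71 and 10.93 on the siRNA 1 arrays and 10.71 and 10.92 on the siRNA 2 arrays, against 12.33 and 12.28 on the control arrays. It fell 2.81-fold with both siRNAs pooled (log2 change -1.49, SE 0.0964, limma adjusted p = 0.0287), and in siRNA 1 cells alone (adjusted p = 0.0452). In siRNA 2 cells alone the adjusted p was 0.0742, and 0.048 with the replicate number as a block. Array medians lay between 7.77 and 7.84. The array of siRNA 1 replicate 2 stood apart: its interquartile range was 3.13, against 3.33 to 3.45 on the other 5. On that array the median receptor among the 14 dimmest members sat 0.20 above the mean of the other arrays, as described further on. ES cell markers averaged 12.52 and 12.37 in siRNA 1 cells and 12.55 and 12.43 in siRNA 2 cells, against 12.69 and 12.59 in control cells, with all 8 markers above the sensory receptor range defined next. Of the 8, Nanog (-0.33), Zfp42 (-0.39) and Fgf4 (-0.33) read below both controls on every knockdown array, as did 10.1% of all genes. Dppa5a (0.06) read above both, as did 8.83%. With both siRNAs pooled, limma adjusted p-values were 0.333 for Nanog, 0.336 for Zfp42 and 0.551 for Fgf4. Extraembryonic endoderm markers averaged 7.50 and 7.94 in siRNA 1 cells and 7.46 and 7.61 in siRNA 2 cells, against 7.35 and 7.63 in control cells, and 2 of their 7 genes read in the sensory receptor range. Trophoblast markers averaged 8.97 and 9.16 in siRNA 1 cells and 8.76 and 8.98 in siRNA 2 cells, against 8.82 and 8.89 in control cells. Of these 5 genes, Eomes was higher on every knockdown array (0.29, limma adjusted p = 0.401) and 4 overlapped. The ES cell, endoderm and trophoblast lists held no called gene in the fit without the block. With the block 1 was called, Zfp42 with siRNA 1 (log2 change -0.47, limma adjusted p = 0.0421). Neural markers averaged 8.32 and 8.28 in siRNA 1 cells and 8.44 and 8.49 in siRNA 2 cells, against 8.32 and 8.40 in control cells. Of these 5 genes, 3 had a pooled change below 0 and 2 above. Otx2 had a log2 change of 0.57 with siRNA 2 (limma adjusted p = 0.332) and of 0.09 with siRNA 1. Pax6 read below both controls on every knockdown array (pooled change -0.14, limma adjusted p = 0.633). Mesoderm markers averaged 6.84 and 7.05 in siRNA 1 cells and 6.89 and 7.01 in siRNA 2 cells, against 6.89 and 6.93 in control cells. Fibroblast markers averaged 6.60 and 6.81 in siRNA 1 cells and 6.76 and 6.83 in siRNA 2 cells, against 6.60 and 6.70 in control cells, and 3 of their 6 genes read in the sensory receptor range, while Thy1 was higher on every knockdown array (0.35, limma adjusted p = 0.438). The neural, mesoderm and fibroblast lists held no called gene, with the block or without it. Their part in the receptor values was not tested, and fewer cells of a type and less RNA per cell cannot be told apart in such extracts.

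The array gives no detection calls, so brightness was described against 1207 odorant, vomeronasal and trace amine receptor genes, best known from sensory neurons, whose 95th percentile was 6.68. The median gene read 7.81. Of the 32 genes, 14 read within the sensory receptor range: Esr2, Pgr, Nr3c2, Thrb, Pparg, Nr1h4, Nr1i2, Nr1i3, Rorb, Nr2f1, Nr2f2, Nr2e1, Hnf4g and Nr0b2. Between that bound and the median gene lay 7: Esr1, Vdr, Ppara, Nr1h3, Rora, Rxrg and Nr5a1. The other 11 read above the median gene: Nr3c1, Thra, Ppard, Nr1d1, Nr1d2, Rxra, Rxrb, Nr2c1, Nr2c2, Nr2f6 and Nrip1. These classes describe brightness, which depends on the probe as well as on the RNA.

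No receptor of the set, nor Nrip1, passed the test. With both siRNAs against control, limma called 0 of the 32 at an adjusted p under 0.05, where it called 0.0702% of all genes, and 0 with the replicate block, where it called 0.341%. The lowest adjusted p of a member was 0.279, or 0.104 with the block. Without adjustment, 2 members (6.25%) had a p under 0.05, Rxra and Thrb, against 8.72% of all genes. Members called in siRNA 1 cells were also 0 (0.0702% of all genes, and 1.21% with the block, which called 0 members too), with 2 (6.25%) at an unadjusted p under 0.05, against 12.1% of all genes. In siRNA 2 cells 0 were called (0% of all genes, and 0.13% with the block, which again called 0 members), with 2 (6.25%) at an unadjusted p under 0.05, against 5.25% of all genes. Rxra and Thrb were the 2 genes in each of these contrasts, which share their control arrays.

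The values fell on both sides of the control: 21 of the 32 had a higher mean in p/CIP siRNA cells than in control cells and 11 a lower one. Their median log2 change was 0.03 (range -0.32 to 0.40), against 0.01 over all genes, of which 10436 had a higher mean and 9502 a lower one. In 29 of the 32, the 4 knockdown values overlapped the 2 control values. Of the remaining 3, Thra and Thrb read higher on every knockdown array, a state that 8.83% of all genes showed. Only Rxra among the 32 read lower on every knockdown array, as did 10.1% of all genes. Both counts, 2 and 1 of 32, were smaller than those shares.

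**Figure D1:**
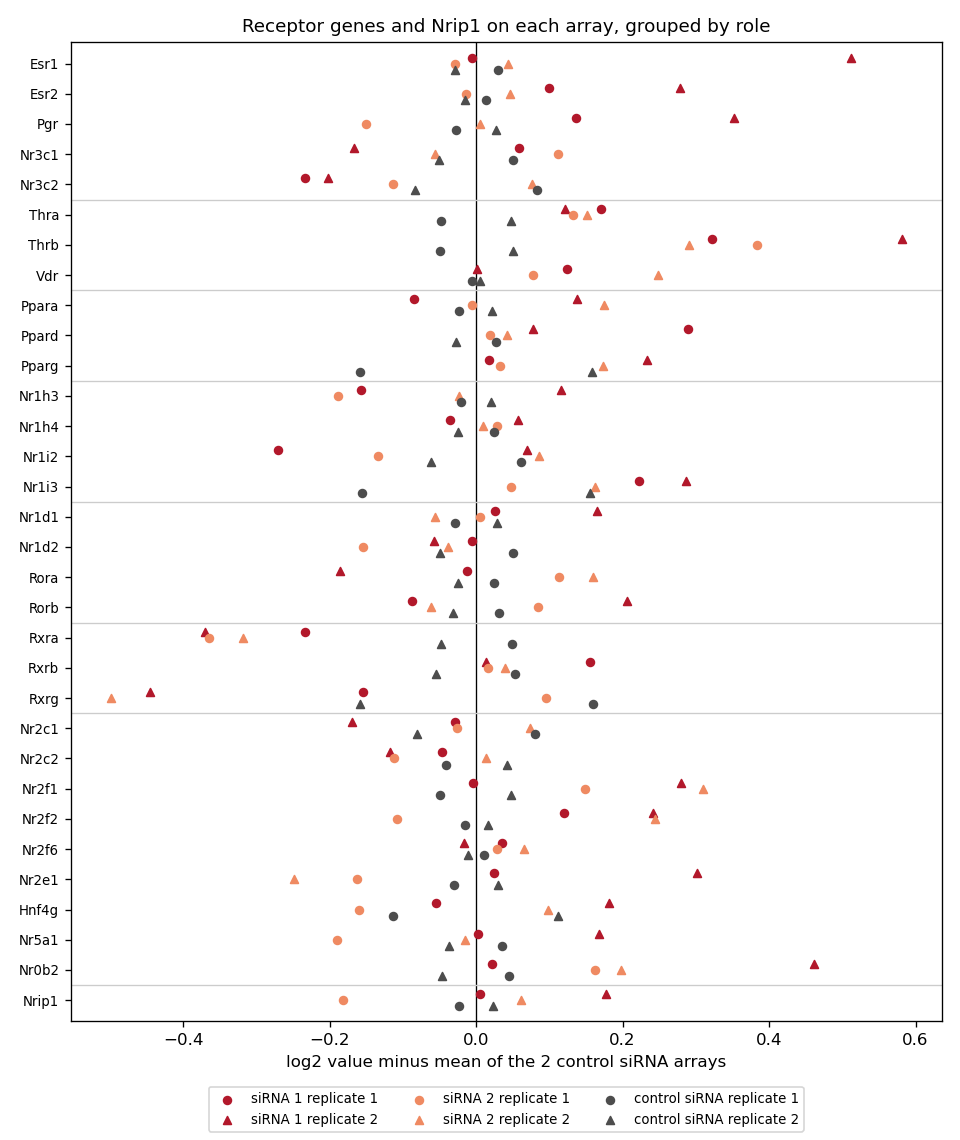
Each row is a gene, grouped by role, and each point is 1 of the 6 arrays, plotted as its log2 value minus the mean of the 2 control siRNA arrays. Most rows mix the colours, while all 4 knockdown points of Thra and Thrb lie right of both control points and those of Rxra lie left of them.

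The RXRs are the shared partners of the thyroid hormone, vitamin D, fatty acid, sterol and xenobiotic receptors. Rxra, which encodes RXR alpha and whose AGGTCA promoter is printed above, read 8.72 and 8.58 in siRNA 1 cells and 8.58 and 8.63 in siRNA 2 cells, against 9.00 and 8.90 in control cells. The 4 knockdown arrays lay together and below both control arrays. The pooled log2 change was -0.32, or 1.25-fold (SE 0.0758, 95% interval -0.50 to -0.14), with an unadjusted p of 0.00406 and a limma adjusted p of 0.279, so the difference did not pass over all genes. It was -0.30 with siRNA 1 (adjusted p = 0.292) and -0.34 with siRNA 2 (adjusted p = 0.573), and siRNA 2 minus siRNA 1 was -0.04 (limma 95% interval -0.25 to 0.17). Rxrb, the RXR beta gene, read 9.93 and 9.79 in siRNA 1 cells and 9.79 and 9.82 in siRNA 2 cells, against 9.83 and 9.73 in control cells. Its groups overlapped, with a change of 0.06 (interval -0.13 to 0.24). Rxrg, the RXR gamma gene, best known from muscle and brain, had the widest scatter: 7.55 and 7.26 in siRNA 1 cells and 7.80 and 7.21 in siRNA 2 cells, against 7.87 and 7.55 in control cells. Replicate 2 read lower than replicate 1 in each of its 3 groups, and its pooled change of -0.25 had an interval of -0.69 to 0.18 (limma adjusted p = 0.72, and 0.21 with the block).

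The 3 receptors for thyroid hormone and vitamin D had a median log2 change of 0.14. Thrb, the thyroid hormone receptor beta gene, read 5.81 and 6.07 in siRNA 1 cells and 5.87 and 5.78 in siRNA 2 cells, against 5.44 and 5.54 in control cells. All 4 knockdown values were above both control values, and all 6 lay within the sensory receptor range. The pooled change was 0.40, or 1.31-fold (SE 0.0938, interval 0.17 to 0.62), with an unadjusted p of 0.0042 and a limma adjusted p of 0.282. With siRNA 1 alone it was 0.45 (SE 0.108, limma adjusted p = 0.222), with a change of 0.58 and an adjusted p of 0.048 where siRNA 1 replicate 1 was left out. That fit, the 1 alternative that called a member, held 1 siRNA 1 array, replicate 2, assumed to vary like the other groups, and it called 2.19% of all genes. With siRNA 2 it was 0.34 (limma adjusted p = 0.746). The array of siRNA 1 replicate 2, on which many dim genes read high, gave the highest Thrb value, and without it the pooled change was 0.33 (limma adjusted p = 0.255).

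Thra, the thyroid hormone receptor alpha gene, read 8.23 and 8.18 in siRNA 1 cells and 8.19 and 8.21 in siRNA 2 cells, against 8.01 and 8.10 in control cells. The 4 knockdown values spanned a narrower range than the gap between the control arrays and stood above both. The change was 0.14 (SE 0.0689, interval -0.02 to 0.31, limma adjusted p = 0.61), and both siRNAs gave near-equal values, 0.15 for siRNA 1 and 0.14 for siRNA 2. Thra shares 1075 bases of chromosome 11 with Nr1d1, the REV-ERB alpha gene of the opposite strand, by the RefSeq spans; probe positions and strand were not used here. Vdr, the vitamin D receptor gene, read 6.97 and 6.85 in siRNA 1 cells and 6.92 and 7.09 in siRNA 2 cells, against 6.84 and 6.85 in control cells, so that 1 knockdown array overlapped the controls. Its change was 0.11 (limma adjusted p = 0.71).

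**Figure D2:**
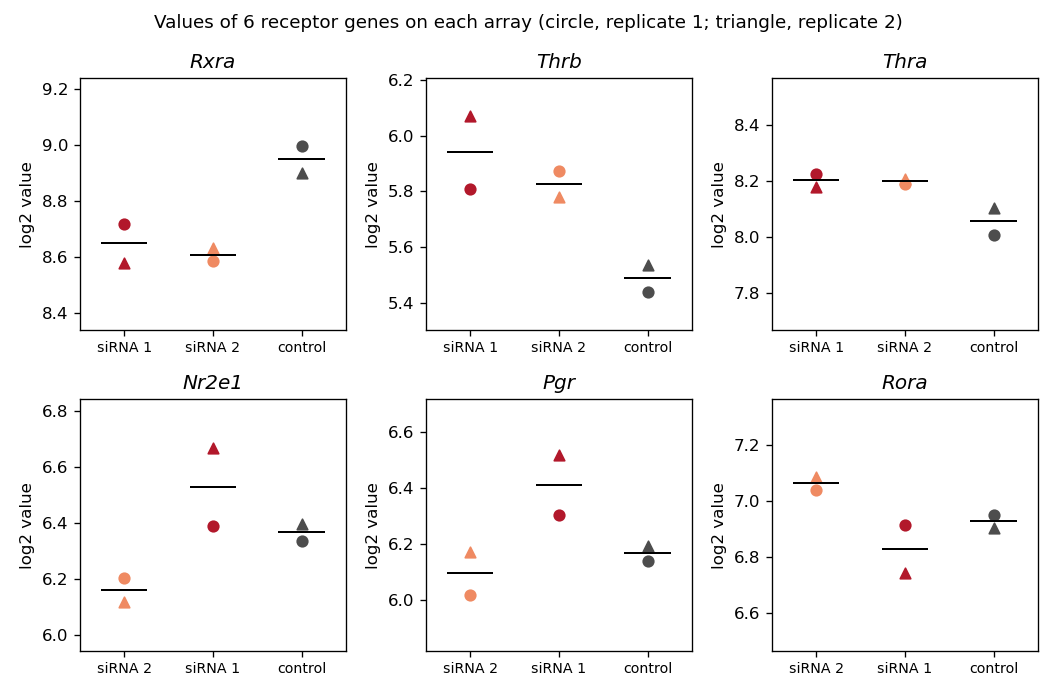
Log2 values of 6 receptor genes, with each point an array (circle, replicate 1; triangle, replicate 2) and each line a group mean, on axes of equal span. In the upper panels the p/CIP siRNA arrays stand apart from the control arrays (Rxra below, Thrb and Thra above), and in the lower panels the 2 siRNAs stand apart from each other with the control arrays between or beside them.

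The 5 steroid receptors had a median log2 change of 0.09, and their groups all overlapped. Esr1, the estrogen receptor alpha gene, read 7.17 and 7.69 in siRNA 1 cells and 7.15 and 7.22 in siRNA 2 cells, against 7.21 and 7.15 in control cells. A single array, siRNA 1 replicate 2, lay apart and the other 5 stayed within 7.15 to 7.22. The pooled change was 0.13 (SE 0.139, interval -0.20 to 0.46, limma adjusted p = 0.80), with 0.25 for siRNA 1 and 0.01 for siRNA 2. Without siRNA 1 replicate 2 the pooled change of Esr1 was 0.00. Nr3c1, the glucocorticoid receptor gene, read 8.40 and 8.18 in siRNA 1 cells and 8.46 and 8.29 in siRNA 2 cells, against 8.39 and 8.29 in control cells. Replicate 1 was the higher in each group, and the pooled change of -0.01 had an interval of -0.24 to 0.21. Among the other steroid receptors, Esr2 (estrogen receptor beta) had a log2 change of 0.10, Pgr (progesterone receptor) of 0.09 and Nr3c2 (mineralocorticoid receptor) of -0.12, with limma adjusted p-values of 0.721 to 0.794. Esr2 read 6.23 and 6.41 in siRNA 1 cells and 6.11 and 6.18 in siRNA 2 cells, against 6.14 and 6.11 in control cells, so both siRNA 1 arrays and 1 siRNA 2 array stood above the controls. Nr3c2 read 5.98 and 6.01 in siRNA 1 cells and 6.10 and 6.29 in siRNA 2 cells, against 6.30 and 6.13 in control cells, with the siRNA 1 arrays lowest.

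The peroxisome proliferator-activated receptors (PPARs), which sense fatty acids, had a median log2 change of 0.11. Ppard, the PPAR delta gene, read 11.06 and 10.85 in siRNA 1 cells and 10.80 and 10.82 in siRNA 2 cells, against 10.80 and 10.75 in control cells. Its lowest knockdown value lay just under its highest control value, and the change was 0.11 (interval -0.09 to 0.30, limma adjusted p = 0.732). Ppara, known for fatty acid oxidation in liver, had a log2 change of 0.06, and Pparg, the regulator of fat cell formation, of 0.11. Ppara read 6.76 and 6.98 in siRNA 1 cells and 6.84 and 7.02 in siRNA 2 cells, against 6.82 and 6.86 in control cells, with replicate 2 the higher in each group. Pparg read 6.52 and 6.74 in siRNA 1 cells and 6.53 and 6.67 in siRNA 2 cells, against 6.34 and 6.66 on the control arrays, a range that held 2 of the 4 knockdown values.

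The oxysterol, bile acid and xenobiotic receptors had a median log2 change of -0.02 over the 4 of 5 found. Nr1h3, which encodes the liver X receptor alpha (LXR alpha), read 7.22 and 7.49 in siRNA 1 cells and 7.19 and 7.35 in siRNA 2 cells, against 7.36 and 7.40 in control cells. The pooled change was -0.06 (interval -0.30 to 0.17, limma adjusted p = 0.866), and the groups overlapped. Only siRNA 1 replicate 2 read above the controls, so leaving it out removed the overlap by construction. The highest remaining knockdown value was then 7.353, against 7.356 for the lower control. In that setting 13.7% of all genes were lower without overlap. Nr1h4, which encodes the bile acid receptor FXR, stayed within 5.74 to 5.83 on all 6 arrays. Nr1i2 (PXR) and Nr1i3 (CAR), sensors of foreign compounds in liver and gut, had log2 changes of -0.06 and 0.18, with limma adjusted p-values of 0.892 and 0.656. Nr1i3 read 5.87 and 5.94 in siRNA 1 cells and 5.70 and 5.81 in siRNA 2 cells, against 5.50 and 5.81 in control cells, so the siRNA 1 arrays lay above both controls and 1 siRNA 2 array lay between them.

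The REV-ERBs repress and the RORs activate at the same DNA elements in the circadian clock, and the 4 genes had a median log2 change of 0.03. Nr1d1 (REV-ERB alpha) read 10.50 and 10.64 in siRNA 1 cells and 10.48 and 10.42 in siRNA 2 cells, against 10.44 and 10.50 in control cells, a change of 0.04 (interval -0.14 to 0.21). Nr1d2 (REV-ERB beta) read 9.04 and 8.99 in siRNA 1 cells and 8.89 and 9.01 in siRNA 2 cells, against 9.10 and 9.00 in control cells, a change of -0.06 (interval -0.24 to 0.11). Rora and Rorb had log2 changes of 0.02 and 0.04, and the siRNAs split Rora as described below. None of the 4 separated p/CIP siRNA arrays from control arrays.

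The other orphan receptors had a median log2 change of 0.02 over the 9 of 10 found, and all of their groups overlapped. Those above the median gene varied little: Nr2c1 (TR2) had a change of -0.04, Nr2c2 (TR4) of -0.07 and Nr2f6 (EAR2) of 0.03. Nr2f1 and Nr2f2, the COUP transcription factors of neural and mesodermal development, had changes of 0.18 and 0.12 (limma adjusted p = 0.655 and 0.761). Nr2f1 read 6.25 and 6.53 in siRNA 1 cells and 6.40 and 6.56 in siRNA 2 cells, against 6.20 and 6.30 in control cells, with siRNA 1 replicate 1 between the controls. Nr2f2 read 6.53 and 6.65 in siRNA 1 cells and 6.30 and 6.65 in siRNA 2 cells, against 6.39 and 6.43 in control cells, with siRNA 2 replicate 1 lowest of all. Nr2e1, a receptor of neural stem cells, had -0.02, Nr5a1, a regulator of adrenal and gonadal steroid synthesis, -0.01, and Hnf4g, a gut and kidney receptor, 0.02. Nr0b2 encodes SHP, a receptor without a DNA-binding domain that inhibits others. It read 6.17 and 6.61 in siRNA 1 cells and 6.31 and 6.34 in siRNA 2 cells, against 6.19 and 6.10 in control cells. Its change was 0.21 (SE 0.123, limma adjusted p = 0.663), with siRNA 1 replicate 1 below the higher control array.

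Nrip1 encodes RIP140, which binds receptors that hold ligand, through the same surface as coactivators, and recruits repressors. It read 8.11 and 8.29 in siRNA 1 cells and 7.93 and 8.17 in siRNA 2 cells, against 8.08 and 8.13 in control cells. The knockdown values lay on both sides of the controls, and the change was 0.02 (SE 0.0953, interval -0.21 to 0.24, limma adjusted p = 0.971). It was 0.09 for siRNA 1 and -0.06 for siRNA 2.

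The intervals, which are per gene and not adjusted over all genes, give the changes compatible with these 6 arrays. They do not give the sizes that the adjusted test could miss. With both siRNAs against control, limma's 95% interval lay within 1.5-fold in either direction for 30 of the 32 genes (93.8%, against 95.3% of all genes), the exceptions being Thrb and Rxrg. The count was 29 with siRNA 1, where Esr1 was the third exception, and 30 with siRNA 2. The median distance from the estimate to the bound was 0.218 on the log2 scale. The smallest change that was called over all genes was 0.67, while the largest of a member was 0.40. With siRNA 1 those values were 0.76 and 0.45.

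**Figure D3:**
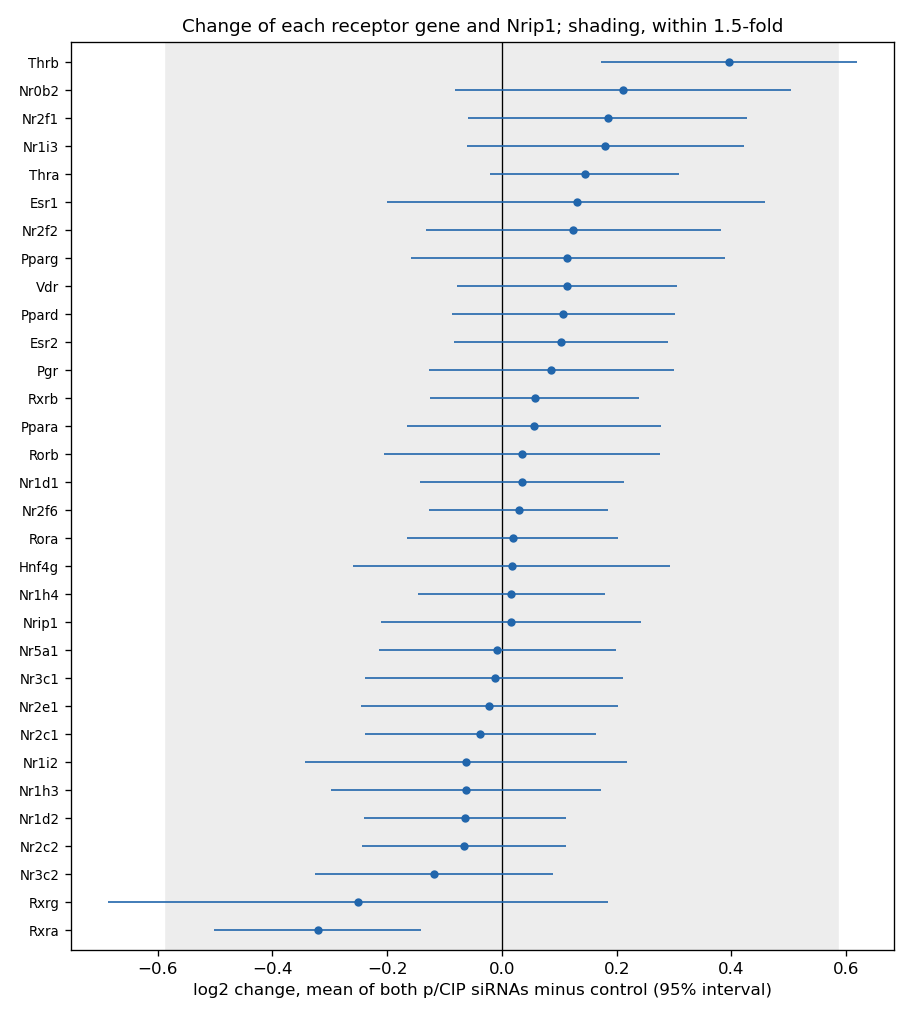
Each row is a gene, ordered by its log2 change, with the mean of both p/CIP siRNAs minus control as a point and limma's 95% interval as a line. The intervals of Thrb and Rxrg leave the shaded band of 1.5-fold in either direction, and those of Rxra and Thrb alone do not cross 0.

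The siRNAs were also set against each other. limma called 0 of the 32 between siRNA 2 and siRNA 1 (0% of all genes), and 0 with the replicate block (0.0752% of all genes). Without adjustment 3 (9.38%) had a p under 0.05, Nr2e1, Pgr and Rora, against 6.9% of all genes. Nr2e1 read 6.20 and 6.12 in siRNA 2 cells, 6.39 and 6.67 in siRNA 1 cells and 6.34 and 6.40 in control cells, a difference of -0.37 (siRNA 2 minus siRNA 1; interval -0.63 to -0.11, limma adjusted p = 0.633). The siRNA 2 arrays were below both other groups. Pgr read 6.02 and 6.17 in siRNA 2 cells, 6.30 and 6.52 in siRNA 1 cells and 6.14 and 6.19 in control cells, a difference of -0.32 (interval -0.56 to -0.07, limma adjusted p = 0.686), with the siRNA 1 arrays above the others. Rora read 7.04 and 7.09 in siRNA 2 cells, 6.92 and 6.74 in siRNA 1 cells and 6.95 and 6.90 in control cells, a difference of 0.24 (interval 0.02 to 0.45, limma adjusted p = 0.718), with the siRNA 2 arrays above the others. The interval lay within 1.5-fold for 29 of the 32 (90.6%, against 91.5% of all genes), the exceptions being Esr1, Rxrg and Nr2e1.

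Values of siRNA 1 replicate 2 moved with brightness. That array was the highest of the 6 for 10 of the 14 members in the sensory receptor range, as it was for 58.1% of the 6221 genes in that class. It was the highest for 3 of the 7 in the middle class (55.1% of 3748 genes) and for 2 of the 11 above the median gene (18.8% of 9969 genes). Set against the mean of the other 5 arrays, the median member of the sensory receptor range was 0.20 higher (13 of 14 above; 0.16 over all genes of that class), and 0.08 higher after quantile normalization (11 of 14 above; 0.07 over the class). In the middle class the median member was at 0.12 as deposited (0.14 over the class) and at -0.003 after quantile normalization (0.04 over the class). For members above the median gene the median was -0.03 as deposited (-0.05 over the class) and 0.03 after quantile normalization (0.01 over the class). The members' shifts in the dimmest class thus lay close to those of all genes in it. The members' median change was 0.08 with siRNA 1 (0.02 over all genes), 0.02 with siRNA 2 (-0.01 over all genes) and -0.05 for siRNA 2 minus siRNA 1 (-0.03 over all genes). After quantile normalization the Nr2e1 difference between siRNAs was -0.30 and that of Pgr -0.26, while Rxra against control was -0.30 and Thrb 0.38. The part of that array in the other values was not tested.

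**Figure D4:**
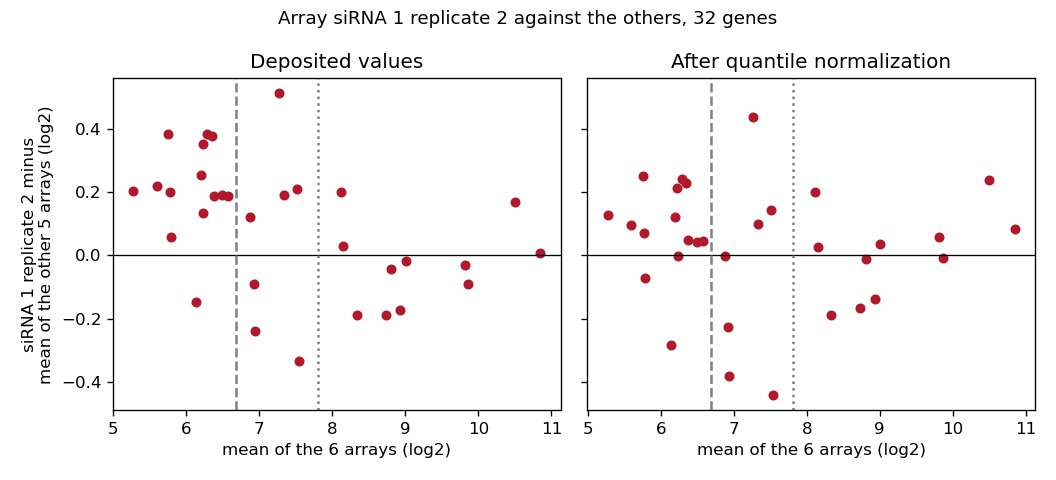
Each point is 1 of the 32 genes, with its mean of 6 arrays (log2) across and its value on siRNA 1 replicate 2 minus the mean of the other 5 arrays (log2) upward. The dashed line is the 95th percentile of sensory receptor genes (6.68) and the dotted line the median gene (7.81); left of the dashed line 13 of 14 points lie above 0 as deposited, and 11 of 14 after quantile normalization.

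Partners and targets of the receptors were read from 9 lists of general knowledge, in which 1 gene was called. Of 15 other nuclear receptors listed, chiefly those of stem cells and the retinoic acid receptors, 13 were measured and 1 fell, Nr0b1, an orphan receptor of ES cells that lacks the usual DNA-binding domain. It read 12.23 and 12.18 in siRNA 1 cells and 12.31 and 12.26 in siRNA 2 cells, against 13.18 and 13.05 in control cells (log2 change -0.87, SE 0.0727, limma adjusted p = 0.0347). Esrrb, an orphan receptor of the pluripotency network, had a change of -0.50 (SE 0.09) with a limma adjusted p of 0.186, and of 0.0386 with the replicate block. The 13 had a median of -0.01, with 1 of 13 higher (8.83% of all genes) and 4 of 13 lower (10.1% of all genes) than control on every knockdown array. Of the 16 corepressor partners, the histone deacetylases, SIN3, TBL1 and CtBP proteins among them, 15 were measured and 0 called. Their median was -0.02, with 4 above and 11 below control. Sin3b (0.21, limma adjusted p = 0.442) and Ctbp1 (0.13, limma adjusted p = 0.67) had the smallest p-values.

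Lists of genes that these receptors are known to switch, mostly from liver, fat and other differentiated tissue, had 0 called genes in any of the 7 lists, with both siRNAs against control. Of the LXR targets, all 10 were measured, with 6 below and 4 above control and a median of -0.05. Abca1, the cholesterol exporter, read 8.72 and 8.36 in siRNA 1 cells and 8.47 and 8.26 in siRNA 2 cells, against 9.05 and 8.83 in control cells. All 4 knockdown values lay under both controls, as they did for 10.1% of all genes, while 9 of the 10 LXR targets overlapped. The Abca1 change of -0.49 (SE 0.129) had a limma adjusted p of 0.336, or 0.0525 with the block. Smpdl3a, a sterol-responsive phosphodiesterase gene that read in the sensory receptor range, had 0.20. Of 16 PPAR targets, 13 were measured, with 9 below and 4 above control and a median of -0.05. Slc25a20, the carnitine carrier of the mitochondrial membrane, read 9.64 and 9.60 in siRNA 1 cells and 9.51 and 9.56 in siRNA 2 cells, against 10.24 and 9.90 in control cells. It too lay under both controls on every knockdown array (log2 change -0.49, SE 0.102, limma adjusted p = 0.213, or 0.0902 with the block). Ucp3, an uncoupling protein gene, had 0.27 and lay above both controls on every knockdown array. Its mean of 6.34 was in the sensory receptor range, and siRNA 1 replicate 2 read highest (6.56). Of the 13 PPAR targets, 3 were lower (10.1% of all genes) and 3 higher (8.83% of all genes) on every knockdown array. Acaa1b among the lower and Cd36 among the higher also read in the sensory receptor range.

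The remaining lists had medians near 0. The 12 glucocorticoid targets had 0.02, led by Mt1, a metallothionein gene (0.29, limma adjusted p = 0.28), and Ddit4, a stress-induced inhibitor of mTOR signalling (0.32, limma adjusted p = 0.399). Mt1 and Ddit4 were among 3 of the 12 that read higher on every knockdown array (8.83% of all genes), and 1 read lower (10.1% of all genes). For the 8 of 9 estrogen and progesterone targets the median was 0.04, with Fos at 0.29 and Tfrc, the transferrin receptor gene, at -0.10. Neither list held a gene that passed the test. For the 8 of 10 thyroid hormone and vitamin D targets it was 0.02, with Me1, the malic enzyme gene, at 0.22 and the calcium channel gene Trpv6 at 0.14. For the 10 of 11 xenobiotic and bile acid targets it was 0.01, with the transporter genes Slc51b at -0.12 and Abcb11 at -0.13. Trpv6, Slc51b and Abcb11 read in the sensory receptor range. Of 13 clock genes, 12 were measured, with 6 on each side of control; Cry1, a clock repressor, had -0.21 and Clock, its activator, -0.20 (limma adjusted p = 0.51 and 0.513).

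**Figure D5:**
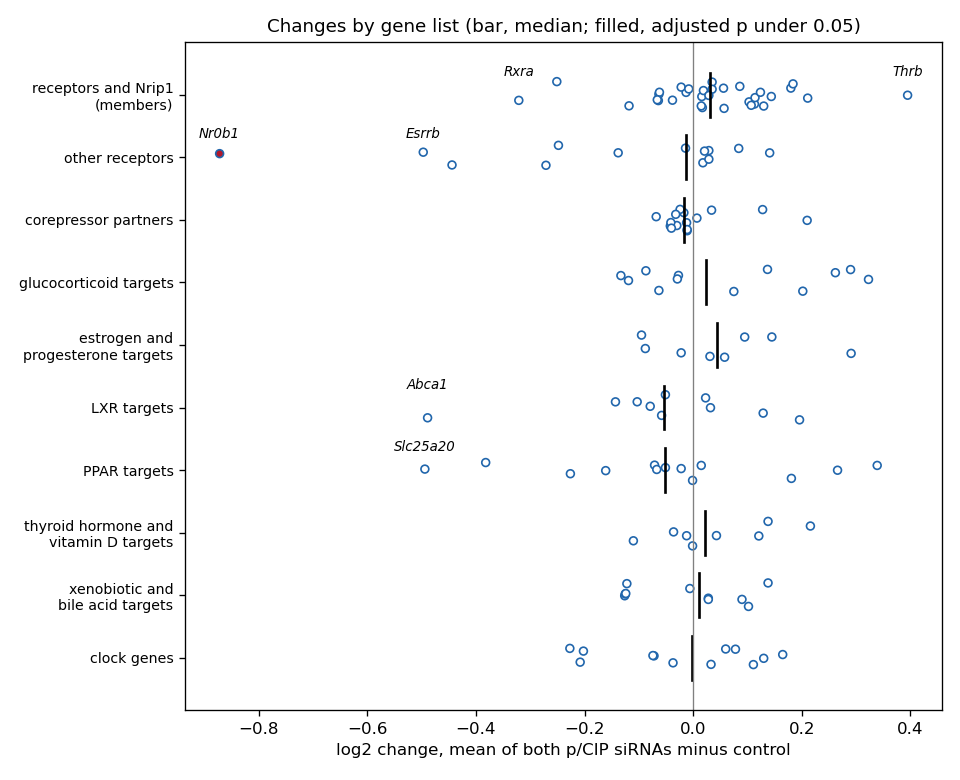
Each point is a gene and each row a list, with the log2 change, the mean of both p/CIP siRNAs minus control, across. The black bars are medians, from -0.05 to 0.04, and Nr0b1 is the 1 filled point, a gene called by limma at an adjusted p under 0.05.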

How the data were processed

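The deposited table gives log2 values by the authors, 1 for each of 35556 probe sets on each of 6 arrays. No source states the log base, which was read from the range of 2.69 to 14.6; folds would differ under another base. Partek made them, per the submitters' processing notes; its version and settings, from background correction to normalization, were not given in the sources used here. No depth applies, and the number of arrays limits the precision. GEO's platform annotation gave 1 symbol for 21789 probe sets, several for 1621 (not named) and none for 12146, which left 19938 genes; the brightest probe set stood for each of the 999 genes with several.

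All 3 groups were fitted together in limma 3.58.1 (R 4.3.3; lmFit and eBayes, no filter, 3 residual and 3.84 prior degrees of freedom), and p-values, two-sided, were adjusted by Benjamini-Hochberg over the 19938 genes. The code was tested on simulated data. The replicate numbers, which come from the titles, were taken to pair the arrays because same-numbered arrays deviated together (correlations 0.464, 0.407 and 0.461 over genes), a weak basis with 2 arrays a group. The fit with this replicate block stands beside the first.

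The members, gene lists and tests were chosen with earlier results of these data known. Values on every array were given for members with an unadjusted p under 0.05 in any of 4 contrasts, for those whose groups did not overlap, and for Rxra, Nr3c1, Esr1 and Nrip1 (Ncor1, also in the rule, had no value); further members were shown in the same way after their values were seen. From each list the called genes were named, or else the 2 of smallest p; Esrrb, Abca1 and Slc25a20 were given more room after their values were seen.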

Additional observations from a re-analysis of the deposited data

How the results depend on the processing

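Over 613 comparisons of a result with an alternative, 581 kept direction and call, 31 changed sign and 1 gained a call. All were log2 changes of single members, none called in the first fit, so no call could be lost. Only median alignment, quantile normalization, cyclic loess and leaving out an array could move an estimate or its sign. Gene counts further on are not among the 613. The pooled changes that changed sign were within 0.07 of 0, but for Pparg (0.11). After quantile normalization Nr3c1 was 0.007, Nr1h4 -0.013 and Rora -0.012. After cyclic loess Nr1h4 was -0.025, Rora -0.02, Rorb -0.001 and Hnf4g -0.012. Leaving out 1 array gave Nr3c1 -0.07 to 0.043, Pparg -0.044 to 0.272, Nr1h3 -0.131 to 0.005, Nr1h4 -0.009 to 0.04, Nr1i2 -0.147 to 0.023, Rora -0.024 to 0.062, Rorb -0.038 to 0.109, Nr2c1 -0.118 to 0.042, Nr2e1 -0.091 to 0.047, Hnf4g -0.095 to 0.129, Nr5a1 -0.052 to 0.035 and Nrip1 -0.045 to 0.076. The cause was not tested.

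Members called with siRNA 1 numbered 0 to 1 over the fits that left out an array, the 1 being Thrb without siRNA 1 replicate 1 (adjusted p = 0.048), a fit with 1 siRNA 1 array that called 437 of all genes (2.19%); every other alternative called 0. With the replicate block 0 members were called in each of the 4 contrasts, and the pooled adjusted p was 0.104 for Rxra and 0.114 for Thrb. Over the alternatives that could move it, the pooled change kept its direction for Rxra (-0.37 to -0.27) and Thrb (0.33 to 0.46).

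Counts moved more. Members tested numbered 32, or 18 without dim genes, a filter that dropped Thrb, Nr2e1 and Pgr. Members, and in brackets the share of all genes, at an unadjusted p under 0.05 follow. With both siRNAs they numbered 2 (8.72%), but 5 with the block (17.5%), 1 without dim genes (11.6%) and 5 without siRNA 1 replicate 1 (20.1%). With siRNA 1 they numbered 2 (12.1%), but 6 with the block (24.3%), 5 after quantile normalization (13.9%), 4 after cyclic loess (13.2%), 1 without dim genes (15.2%) and, with an array left out, from 1 without control siRNA replicate 1 (4.31%) to 8 without siRNA 1 replicate 1 (29%). With siRNA 2 they numbered 2 (5.25%), but 4 after cyclic loess (6.55%), with array weights (8.03%) or with only the groups compared (7.42%), 1 without dim genes (7.19%) and, with an array left out, from 1 (2.23%) to 4 (7.42%). Between siRNAs they numbered 3 (6.9%), but 5 after quantile normalization (8.14%) or cyclic loess (7.68%), 1 without dim genes (8.33%) and, with an array left out, from 1 without siRNA 1 replicate 2 (4.54%) or siRNA 2 replicate 1 (3.28%) to 8 without siRNA 1 replicate 1 (23.3%). Genes called follow, of 19938, of 35556 rows over all probe sets or of 13717 without dim genes. With both siRNAs they numbered 14, but 68 with the block, 74 with a trend and 0 over all probe sets. With siRNA 1 they numbered 14, but 241 with the block, 154 with a trend, 35 after median alignment or without dim genes, 37 after cyclic loess, 0 with array weights, over all probe sets or with only the groups compared, and 0 to 437 with an array left out. With siRNA 2 they numbered 0, but 26 with the block, 18 with a trend, 15 with array weights, 10 with only the groups compared, 5 after median alignment and 2 after quantile normalization or cyclic loess. Between siRNAs they numbered 0, but 15 with the block, 23 with a trend, 4 after median alignment, 1 without dim genes and 0 to 2 with an array left out. Chosen after the data were seen, quantile normalization left 5 members higher without overlap (Thra, Thrb, Ppard, Rxrb and Nr2f6; 12.3% of all genes) and 1 lower, Rxra (7.79%). Without siRNA 1 replicate 2, 4 were higher (Thra, Thrb, Vdr and Nr2f6; 10.8%) and 2 lower (Nr1h3 and Rxra; 13.7%).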
